A study of Mus musculus with 12 samples.

Results

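Elf5, Elf3, Ehf, Spdef, Ovol1 and Grhl2 are 6 transcription factors of epithelial cells whose mRNA was followed in sorted mouse mammary cells with and without ovarian hormones. Every array probe annotated to one of these symbols was taken, which gave 11 of the 45281 probes on the array and all 6 of these genes among 19057 with a symbol. Of these probes, 9 for 5 of the genes were detected in at least 2 of the 8 RNA samples and entered the tests. The other 2 probes, the single probe for Ehf and a second probe for Grhl2, were not detected on any of the 12 arrays.

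The samples came from female mice in 4 pools. For each of 2 ovx pools, 6 FVB/NJ mice had their ovaries removed (ovariectomy, ovx) at 8 weeks of age, and the glands were taken 4 weeks later. The 2 control pools came from control mice whose age and number are not given in the sources used here. Each pool was depleted of CD45, CD31 and TER119 positive cells and sorted into MaSC-enriched cells (CD29hi CD24+, the basal gate that holds the mammary stem cells) and luminal cells (CD29lo CD24+), both at over 90% purity per the labels. This gave 4 groups of 2 samples, and each sample is RNA of a whole pool, so no value belongs to a single mouse. In such bulk RNA, fewer cells of a type and less RNA per cell cannot be told apart.

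The mammary duct has an outer basal layer and an inner luminal layer, and the luminal layer holds both hormone-sensing cells and progenitors of the milk-secreting alveoli. ETS factors share a DNA-binding domain that recognises a GGAA or GGAT core. Elf5, Elf3, Ehf and Spdef belong to the branches of that family that are largely restricted to epithelia, and Elf5 drives the alveolar, milk-producing fate downstream of the prolactin receptor. Grhl2, a grainyhead factor, activates genes of epithelial junctions such as Cdh1 and Cldn4. Ovol1 is a zinc finger repressor that favours epithelial over mesenchymal programmes.

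Detection reached 17705 to 18903 probes on 11 arrays but 12994 on that of control MaSC-enriched replicate 1, whose detection floor was a log2 signal of 7.29 against 5.73 to 5.93 elsewhere. The fractions carried their markers: of 9 tested basal and myoepithelial genes, 8 were lower in luminal cells of control mice and 9 in ovx mice, and of 4 tested hormone-sensing genes, 4 were higher in luminal cells of control mice and 3 in ovx mice. Of all 11292 genes, 4.85% were higher and 6.91% lower in luminal cells of control mice, and 5.65% and 8.91% in ovx mice. Of 8 general luminal markers, 1 passed as higher in control and 3 in ovx mice. The mean log2 signal of these 8 markers was 10.62 to 11.09 in luminal samples and 8.79 to 9.36 in MaSC-enriched samples, so luminal transcripts were measured in the basal gate too. Endothelial markers (4 tested) averaged 9.39 to 11.08 in MaSC-enriched against 7.43 to 8.23 in luminal samples, and 3 were lower in luminal cells of control mice and 4 in ovx mice. Pericyte markers (5 tested) averaged 8.56 to 10.05 against 7.30 to 8.41, and 2 were lower in each treatment. Fibroblast markers (5 tested) averaged 9.51 to 10.85 in MaSC-enriched against 7.64 to 10.33 in luminal samples, and 0 passed in either treatment. The control replicate 2 pool stood apart, with a mean log2 signal of 9 proliferation genes of 10.86 in its MaSC-enriched and 11.17 in its luminal sample against 7.23 to 8.47 in the other 6. Skeletal muscle markers (5 tested) averaged 9.37 and 10.04 in the ovx luminal samples against 5.56 to 6.71 elsewhere. Adipocyte markers (3 tested) averaged 8.59 and 8.51 in the ovx MaSC-enriched samples against 5.17 to 6.26 elsewhere. The part of these differences in the results below was not tested, except where values without the control replicate 2 pool are given.

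Promoter sequences of 3 of the 6 genes were at hand from RefSeq on build GRCm38.p6, but none for Ehf, Ovol1 or Grhl2. All that were at hand are shown. Each runs 5′ to 3′ on the strand of its gene, from 250 bases before the transcription start to 50 bases after it. The ETS core GGAA or its reverse complement TTCC is in capitals, and the GGAT form was not searched. Elf5 has 2 annotated starts, at chr2:103411848-103412147 and chr2:103423818-103424117 on the plus strand, and the array does not say which was used. The Elf3 window is chr1:135258423-135258722 and the Spdef window chr17:27728902-27729201, both on the minus strand.
Elf5 start 1: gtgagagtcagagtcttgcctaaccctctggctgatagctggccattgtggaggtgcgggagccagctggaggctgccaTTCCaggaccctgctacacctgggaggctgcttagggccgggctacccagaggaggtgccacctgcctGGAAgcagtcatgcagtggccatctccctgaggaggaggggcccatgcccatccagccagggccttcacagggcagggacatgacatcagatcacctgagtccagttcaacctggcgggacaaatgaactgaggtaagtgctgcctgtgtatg
Elf5 start 2: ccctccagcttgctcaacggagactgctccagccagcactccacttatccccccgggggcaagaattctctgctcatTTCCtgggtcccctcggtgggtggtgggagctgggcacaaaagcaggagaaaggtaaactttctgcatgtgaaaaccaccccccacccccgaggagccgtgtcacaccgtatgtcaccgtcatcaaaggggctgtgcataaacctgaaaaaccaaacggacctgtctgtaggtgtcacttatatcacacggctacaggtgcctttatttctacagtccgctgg
Elf3: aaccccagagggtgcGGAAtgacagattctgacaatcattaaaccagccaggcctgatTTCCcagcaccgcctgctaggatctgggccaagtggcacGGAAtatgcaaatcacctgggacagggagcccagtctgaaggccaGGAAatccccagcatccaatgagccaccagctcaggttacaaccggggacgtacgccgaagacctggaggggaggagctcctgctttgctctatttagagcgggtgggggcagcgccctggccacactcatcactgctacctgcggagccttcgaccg
Spdef: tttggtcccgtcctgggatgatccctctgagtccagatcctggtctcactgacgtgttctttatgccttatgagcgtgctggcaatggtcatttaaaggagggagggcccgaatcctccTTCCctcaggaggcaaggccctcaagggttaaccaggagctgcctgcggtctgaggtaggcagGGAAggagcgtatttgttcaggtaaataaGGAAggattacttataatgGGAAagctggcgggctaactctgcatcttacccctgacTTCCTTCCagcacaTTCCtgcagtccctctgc
GGAA was searched on both strands and occurred 2 times in the first Elf5 window, 1 time in the second, 4 times in the Elf3 window and 7 times in the Spdef window. A core of this length is common: 96% of 32851 mouse promoter windows of 300 bases held at least 1, with a median of 3. The grainyhead motif AACNNGTT (in 4.2% of all windows) and the STAT motif TTCNNNGAA (in 8.3%), both searched on both strands, did not occur in the windows of these 3 genes.

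Elf5 was high in every luminal sample and uneven in the MaSC-enriched samples. Levels are log2 signals after background correction and quantile normalization, and probes are numbered from the brightest, without comparing levels between probes. Elf5 probe 1 (ILMN_2736380) gave 11.84 and 10.17 in control MaSC-enriched replicates 1 and 2 and 10.43 and 8.48 in the ovx ones. In luminal cells the same probe gave 12.91 and 13.22 in control and 12.50 and 12.51 in ovx samples. All 4 luminal samples lay above all 4 MaSC-enriched samples, and the luminal samples of a group lay close together while the MaSC-enriched ones spread widely. The order of the group means was control luminal (13.07 ± 0.21, SD, n = 2), ovx luminal (12.50 ± 0.01), control MaSC-enriched (11.01 ± 1.18) and ovx MaSC-enriched (9.46 ± 1.38). In ovx mice the luminal signal was higher by 3.05 ± 0.73 (log2, SE), or 8.26-fold, with an adjusted p of 0.0375 in limma. In control mice the difference was 2.06 ± 0.73 with an adjusted p of 0.127, which did not pass.

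Elf5 probe 2 (ILMN_2938440) followed probe 1 across the 8 samples (Pearson r = 0.994) on a dimmer scale. It gave 8.79, 7.35, 7.75 and 5.56 in the MaSC-enriched samples (control 1 and 2, then ovx 1 and 2) and 10.02, 10.31, 9.70 and 10.06 in the luminal samples in that order. The lowest value, in ovx MaSC-enriched replicate 2, was not above background, so the ovx MaSC-enriched group was measured on 1 of its 3 arrays. The fitted luminal excess was 3.23 ± 0.75 in ovx mice (adjusted p = 0.0337, limma) and 2.10 ± 0.75 in control mice (adjusted p = 0.129). Without ovx MaSC-enriched replicate 2 the ovx differences of probes 1 and 2 were 2.07 (adjusted p = 0.171, limma) and 2.13 (adjusted p = 0.133). Both calls were also lost without either luminal sample of either treatment, where the differences were 3.04 to 3.40 and the adjusted p-values 0.0626 to 0.196 (limma), and with no filter on dim probes (0.109 for probe 1).

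Elf5 probe 3 (ILMN_2669510) was detected on all luminal arrays and on no MaSC-enriched array. Its MaSC-enriched signals of 5.01, 5.15, 4.96 and 5.07 are therefore background levels, and its luminal signals were 6.70 and 7.73 in control and 6.24 and 6.03 in ovx samples. With the undetected arrays raised to their detection floor, the control luminal signal was at least 1.59-fold higher (fitted log2 difference 2.13 ± 0.39, adjusted p = 0.0172, limma) and the ovx luminal signal at least 1.22-fold higher (1.12 ± 0.39, adjusted p = 0.116). Without control luminal replicate 2 the adjusted p in control mice was 0.0526 (limma). This dim probe correlated with the others at r = 0.771 and 0.758.

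The MaSC-enriched order of Elf5 was also that of the mean of the luminal progenitor markers, and nearly that of the general luminal markers. So few samples cannot tell the marker lists apart. The mean log2 signal of 4 luminal progenitor markers was 10.20 in control MaSC-enriched replicate 1 and 9.50 in replicate 2. It was 10.05 and 8.80 in the ovx replicates, so the sample with the least Elf5 also had the lowest mean. In luminal samples that mean was 11.19 to 11.73. The general luminal markers, which share the gene Kit with the progenitor list, averaged 9.22 and 8.81 in the control MaSC-enriched replicates. They averaged 9.36 and 8.79 in the ovx ones, so that mean too was lowest in ovx MaSC-enriched replicate 2. The hormone-sensing markers averaged 7.34 and 7.08, then 8.44 and 7.43, and were lowest in control MaSC-enriched replicate 2. Both of these means were highest in ovx MaSC-enriched replicate 1, where Elf5 was not. The part of luminal cells in the Elf5 signal of the basal gate was not tested.

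**Figure D1:**
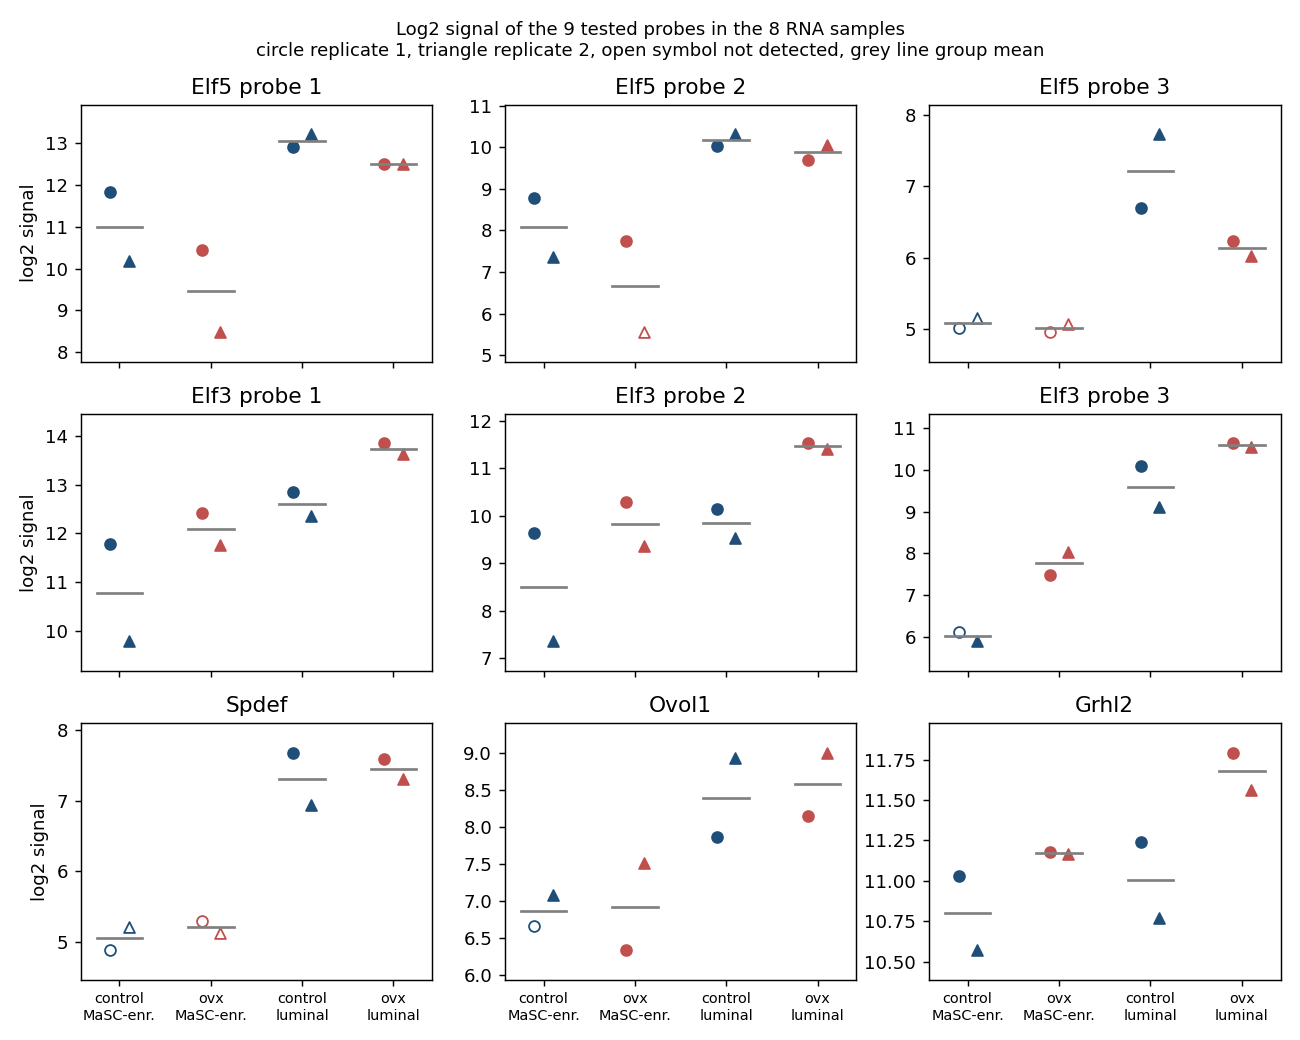
Log2 signal (vertical axes) of the 9 tested probes in the 4 groups (horizontal axes), with blue for control and red for ovx, circles for replicate 1, triangles for replicate 2, open symbols for samples without detection and a grey line at each group mean. Vertical axes differ between panels and do not start at 0. Elf5, Elf3 probe 3, Spdef and Ovol1 lie higher in luminal cells, while Grhl2 stays between 10.57 and 11.79 in all 8 samples.

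Elf3, an epithelium-specific ETS factor, was also measured by 3 probes and was brightest in ovx luminal cells on each of them. Elf3 probe 1 (ILMN_2850233) gave 11.78 and 9.80 in control and 12.41 and 11.77 in ovx MaSC-enriched samples, and 12.86 and 12.36 in control and 13.84 and 13.63 in ovx luminal samples. Its group means ordered as ovx luminal (13.74 ± 0.15), control luminal (12.61 ± 0.35), ovx MaSC-enriched (12.09 ± 0.45) and control MaSC-enriched (10.79 ± 1.40, SD, n = 2 each), and the samples of the control luminal and ovx MaSC-enriched groups overlapped. The luminal excess was 1.82 ± 0.63 in control mice (adjusted p = 0.118, limma) and 1.65 ± 0.63 in ovx mice (adjusted p = 0.146), neither of which passed.

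Elf3 probe 2 (ILMN_2692072), which correlated with probe 1 at r = 0.981, gave 9.64, 7.36, 10.28 and 9.37 in the MaSC-enriched samples and 10.14, 9.54, 11.52 and 11.39 in the luminal samples, each in the order control 1 and 2, then ovx 1 and 2. Control MaSC-enriched replicate 1 lay above control luminal replicate 2, so the fractions of control mice overlapped on this probe. The luminal excess of 1.33 ± 0.72 in control and 1.63 ± 0.72 in ovx mice did not pass (adjusted p = 0.285 and 0.205, limma). The control MaSC-enriched pair was the widest of the 4 groups on both probes, and without control MaSC-enriched replicate 1 the excess was 2.81 on probe 1 (adjusted p = 0.0117, limma) and 2.47 on probe 2 (adjusted p = 0.0280). Without control MaSC-enriched replicate 2 it was 0.83 on probe 1 and 0.19 on probe 2.

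Elf3 probe 3 (ILMN_2621659) was the Elf3 probe that passed the test between the fractions. It gave 6.13 and 5.90 in control MaSC-enriched samples, with only 1 of their 3 arrays above background, 7.49 and 8.04 in ovx MaSC-enriched samples, 10.10 and 9.11 in control luminal and 10.64 and 10.54 in ovx luminal samples. No 2 groups overlapped, and the order was ovx luminal, control luminal, ovx MaSC-enriched, control MaSC-enriched. The luminal signal was higher by a fitted 3.59 ± 0.41 (adjusted p = 0.00337, limma) in control mice, where the MaSC-enriched mean is mostly background, and by 2.83 ± 0.41 (7.09-fold, adjusted p = 0.00592) in ovx mice. The control call held on leaving out any single sample (differences of 3.10 to 4.09), while the ovx call had adjusted p-values of 0.0680 and 0.0541 (limma) without ovx luminal replicate 1 or 2. The 3 probes thus gave different sizes for one gene, and probe 3 correlated with probes 1 and 2 at r = 0.877 and 0.789.

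Spdef, an ETS factor known for its role in secretory differentiation of epithelia, was detected in luminal cells alone. Its probe (ILMN_1258162) was above background on all 6 luminal arrays and on 0 of the 6 MaSC-enriched arrays. The luminal signals were 7.69 and 6.95 in control and 7.59 and 7.31 in ovx samples, and the background levels in MaSC-enriched samples were 4.88 and 5.21 in control and 5.29 and 5.12 in ovx samples. The fractions did not overlap, and treatment groups within a fraction did. The luminal signal was at least 1.71-fold higher in control mice (fitted log2 difference 2.27 ± 0.35, adjusted p = 0.00979, limma) and at least 3.03-fold higher in ovx mice (2.25 ± 0.35, adjusted p = 0.00814). The smaller bound in control mice comes from the higher detection floor of control MaSC-enriched replicate 1. Leaving out 1 sample ended the control call without control luminal replicate 1 (adjusted p = 0.0614, limma) and the ovx call without ovx MaSC-enriched replicate 2 (0.0590), ovx luminal replicate 1 (0.0955) or ovx luminal replicate 2 (0.0611).

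Ehf, the ETS factor closest to Elf3 and Elf5, could not be followed. Its only probe (ILMN_2597515) had raw intensities of 94.0 to 168.5 on the 12 arrays, and its lowest detection p was 0.269. The second Grhl2 probe (ILMN_1226415) behaved alike, with raw intensities of 97.5 to 155.3 and a lowest detection p of 0.346. A probe that is not detected says nothing of how much of its transcript the cells held, and for Grhl2 the other probe was bright on all 12 arrays.

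Ovol1 (ILMN_2617858) gave 6.66 and 7.07 in control and 6.33 and 7.50 in ovx MaSC-enriched samples, and 7.86 and 8.93 in control and 8.15 and 9.0 in ovx luminal samples. The 6.66 of control MaSC-enriched replicate 1 was not above background, on the array with the detection floor of 7.29. The differences that use this sample therefore rest partly on a background level. The lowest luminal sample lay above the highest MaSC-enriched sample, and control and ovx overlapped in both fractions. The group means were 8.57 ± 0.60 in ovx luminal, 8.39 ± 0.75 in control luminal, 6.92 ± 0.83 in ovx MaSC-enriched and 6.86 ± 0.29 in control MaSC-enriched cells (SD, n = 2 each). The luminal excess was 1.53 ± 0.56 in control mice (2.89-fold, adjusted p = 0.133, limma) and 1.66 ± 0.56 in ovx mice (3.15-fold, adjusted p = 0.105). With the mouse pool as a block, since each pool gave both fractions, the adjusted p-values were 0.0454 and 0.0312 (limma), so that the Ovol1 call depends on the pairing. With the pool as a random block the ovx call alone was made (adjusted p = 0.0476, limma).

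Grhl2 was at nearly the same level in both fractions. Its detected probe (ILMN_1257070) gave 11.03 and 10.57 in control and 11.18 and 11.16 in ovx MaSC-enriched samples, and 11.24 and 10.77 in control and 11.79 and 11.56 in ovx luminal samples. The control fractions overlapped, and the ovx fractions did not. The luminal excess was 0.20 in control mice (95% confidence interval -0.56 to 0.97, adjusted p = 0.719, limma) and 0.51 in ovx mice (-0.26 to 1.27, adjusted p = 0.400). A difference of up to 0.97 or 1.27 log2 units therefore remained possible.

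Counted together, 3 of the 9 probes passed the test between the fractions in control mice, all higher in luminal cells, against 10.1% of the 20995 tested probes in either direction and 4.54% in that direction. In ovx mice 4 of the 9 passed, again all higher in luminal cells, against 12.4% in either direction and 5.05% higher. The genes with a passing probe were Elf5, Elf3 and Spdef in both treatments, although the passing Elf5 probe was probe 3 in control and probes 1 and 2 in ovx mice. Spdef and Elf5 probe 3 were detected in luminal samples alone. The detection filter thus kept them only through the fraction where they are high, so the direction of their calls is not separate support. Taking the brightest probe of each gene, 1 of 5 genes passed in control mice (Spdef) and 2 of 5 in ovx mice (Elf5 and Spdef), and these counts were 2 and 3 with the pool as a fixed block and 1 and 3 with it as a random block. The median difference over the 9 probes was 2.06 in control and 1.66 in ovx mice, beside 0.16 and 0.11 over all tested probes. The samples of the fractions did not overlap for 7 of 9 probes in control mice (51.5% of all probes in either direction, 30.1% higher) and for 9 of 9 in ovx mice (63.9% and 36.9%).

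Within each of the 4 pools the luminal sample lay above the MaSC-enriched sample for all 9 probes, as it did for 30.3% of all tested probes. Elf5 probe 1 differed by 1.07 and 3.05 in the control replicate 1 and 2 pools and by 2.06 and 4.03 in the ovx ones, so that pools of the same treatment differed more than the treatments. Spdef differed by 2.81 and 1.74 in control and by 2.30 and 2.19 in ovx pools, where its MaSC-enriched values are background levels. Those of Elf5 probe 3 are background levels too. In the control replicate 1 pool its luminal signal of 6.70 lay below the detection floor of 7.29 on the MaSC-enriched array, so that pool does not settle its direction. Grhl2 differed by 0.20 to 0.62. Averaged over control and ovx mice, a comparison added after the data were seen, 4 of the 5 genes were higher in luminal cells: Elf5 by 2.55 ± 0.52 (adjusted p = 0.0122, limma), Elf3 by 1.73 ± 0.44 (0.0291), Spdef by 2.26 ± 0.25 (0.00105) and Ovol1 by 1.59 ± 0.39 (0.0258), against 24.3% of all probes in either direction and 12.7% higher. Grhl2, at 0.35 ± 0.23 with an adjusted p of 0.302, was the exception.

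**Figure D2:**
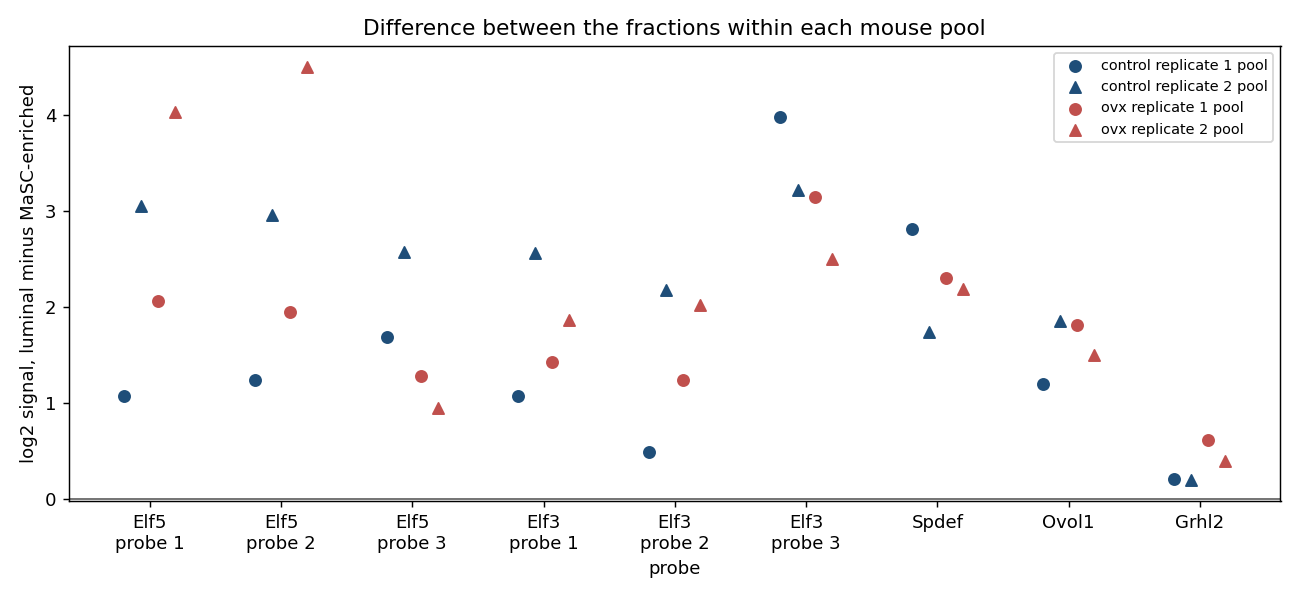
Difference in log2 signal between the luminal and the MaSC-enriched sample of the same pool (vertical axis) for the 9 tested probes (horizontal axis), with 1 point per pool, blue for control and red for ovx, circles for replicate 1 and triangles for replicate 2. All 36 differences lie above 0, and those of Elf5 probes 1 and 2 range the most, from 1.07 to 4.50.

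The beadchips, of which there were 2, are a batch to be weighed beside these values, since the first held all MaSC-enriched first arrays and the luminal replicate 1 arrays, and the second the luminal replicate 2 arrays and the second arrays of 4 RNAs. Within the first beadchip each luminal group, and within the second each MaSC-enriched group, is 1 sample that was assumed to vary like the other groups. Within the first beadchip Elf5 probe 1 differed by 1.92 in control and 2.99 in ovx mice. Elf3 probe 1 differed there by 2.11 and 1.80, Elf3 probe 3 by 4.07 and 2.86, and Spdef by 2.71 and 2.49. Within the second, Elf5 probe 1 differed by 2.85 in control and 4.08 in ovx mice, Elf3 probe 1 by 2.82 and 1.98, and Spdef by 1.88 and 2.34. The direction was the same on both beadchips for these genes. The second arrays of 4 RNAs differed from the first by 0.01 to 0.73 log2 units over the 9 probes, with a median of 0.12.

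Ovariectomy was the second factor, and it takes away the main source of oestrogen and progesterone. None of the 9 probes passed the test between ovx and control mice in MaSC-enriched cells, where 0.0762% of all probes did, or in luminal cells, where 0.157% did (limma). An unadjusted p under 0.05 (limma) was found in MaSC-enriched cells for 1 of 9 probes (Elf3 probe 3), beside 1811 of all 20995. In luminal cells it was found for 2 of 9 (Elf3 probe 3 and Elf5 probe 3), beside 1511 of all 20995. The difference between the ovx effects of the fractions was also called for 0 of 9 probes, with 0 at an unadjusted p under 0.05, and 0% of all probes were called. The groups did not overlap for 2 of 9 probes in MaSC-enriched cells (32.3% of all probes) and for 6 of 9 in luminal cells (51.5%). These 9 probes stand for 5 genes, and the counts were not tested against those shares.

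Elf3 gave the largest values on the ovx side. In MaSC-enriched cells the ovx minus control difference was 1.30 ± 0.63, 1.32 ± 0.72 and 1.75 ± 0.41 on probes 1 to 3 (adjusted p = 0.637, 0.680 and 0.242, limma), and both ovx samples lay above both control samples on probe 3 alone. In luminal cells it was 1.13 ± 0.63, 1.62 ± 0.72 and 0.99 ± 0.41 (adjusted p = 0.802, 0.719 and 0.683), with no overlap on any of the 3 probes. Averaged over both fractions, a comparison added after the data were seen, the differences were 1.22, 1.47 and 1.37 (adjusted p = 0.331, 0.312 and 0.136, limma), where 0.210% of all probes were called. The control replicate 2 pool had high proliferation markers (9 of 9 detected, summed linear signal 29383 and 38707 against 1891 to 5661 elsewhere). It held the lowest luminal Elf3 signal on all 3 probes and the lowest MaSC-enriched signal on probes 1 and 2. On probe 3 its MaSC-enriched signal of 5.90 cannot be ranked against that of control replicate 1, which was not detected. Without that pool the differences on probes 1 to 3 were 0.31, 0.18 and 1.64 in MaSC-enriched cells and 0.88, 1.32 and 0.49 in luminal cells. The 1.64 rests on control MaSC-enriched replicate 1, where probe 3 was not detected (6.13, below that array's detection floor of 7.29). The ovx MaSC-enriched signals on probe 3 were 7.49 and 8.04.

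Elf5 gave values of the other sign. The ovx minus control difference in MaSC-enriched cells was -1.55 ± 0.73 on probe 1, -1.42 ± 0.75 on probe 2 and -0.07 ± 0.39 on probe 3, with adjusted p-values of 0.633, 0.667 and 0.982 (limma), and probe 3 was at background in both of these groups. Leaving out single samples moved it between -2.52 and -0.57 on probe 1 and between -2.51 and -0.32 on probe 2, where the values nearest 0 came without the second ovx sample. The luminal difference was -0.56 ± 0.73, -0.29 ± 0.75 and -1.08 ± 0.39, with adjusted p-values of 0.913, 0.968 and 0.585. The 95% confidence interval for probe 1 ran from -3.27 to 0.17 in MaSC-enriched and from -2.28 to 1.16 in luminal cells, so that neither a several-fold loss nor no change lay outside it.

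For the other genes the differences were small beside their intervals. Spdef differed by 0.16 in MaSC-enriched cells, where it was not detected, and by 0.14 in luminal cells (95% confidence interval -0.69 to 0.96). Ovol1 differed by 0.06 (-1.25 to 1.36) and 0.18 (-1.12 to 1.49). Grhl2 was above control in both ovx samples of both fractions, with differences of 0.37 (-0.40 to 1.13, adjusted p = 0.804, limma) and 0.67 (-0.09 to 1.44, adjusted p = 0.756). Grhl2 and Elf3 probe 3 were the 2 of 9 probes with ovx above control and no overlap in both fractions, against 8.51% of all tested probes.

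**Figure D3:**
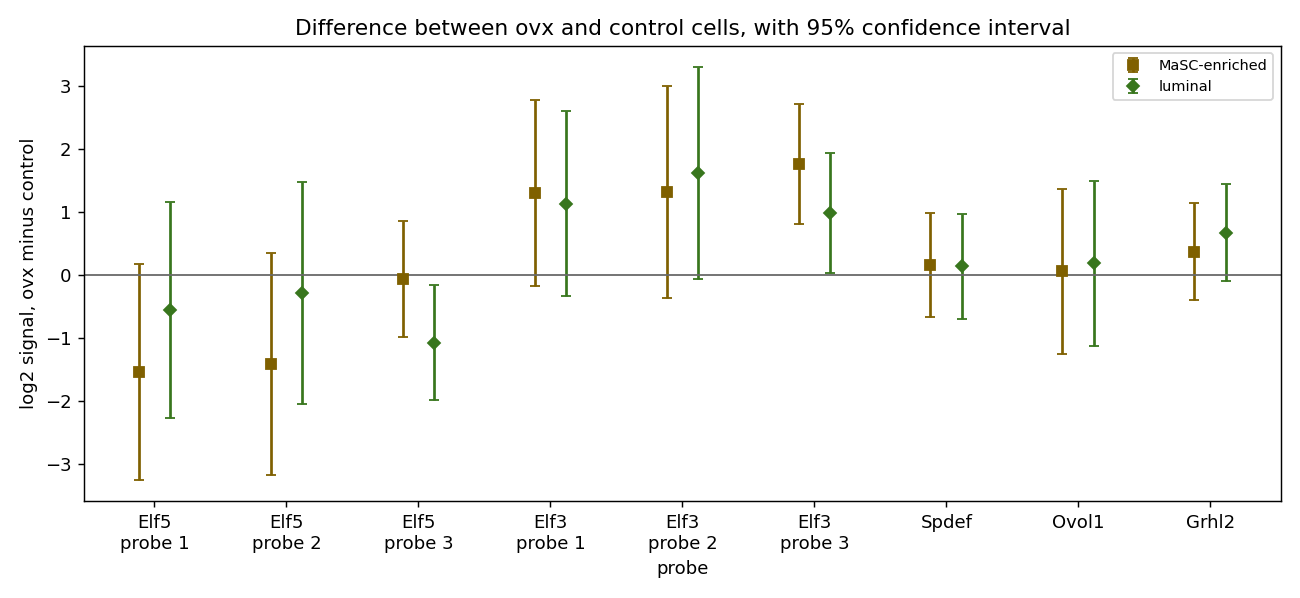
Difference in log2 signal between ovx and control cells (vertical axis) for the 9 tested probes (horizontal axis), with brown squares for MaSC-enriched and green diamonds for luminal cells and bars for the 95% confidence interval of the limma fit. Elf3 lies above 0 on each probe and Elf5 below 0, except that Elf5 probe 3 is at background and near 0 (-0.07) in MaSC-enriched cells, and 3 intervals leave out 0 before adjustment.

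The genes whose signal was most like each factor over the 8 samples were found by Pearson correlation with its brightest probe over 11287 other genes, as a description. For Elf5 they were Wfdc3 (r = 0.996), Myo5c (0.986) and the folate receptor gene Folr1 (0.986), with 140 genes above 0.9. Wfdc3 differed between control fractions by 1.96 and Folr1 by 2.31, near the 2.06 of Elf5, and both had negative ovx differences in MaSC-enriched cells, at -1.24 and -1.44. For Elf3 they were Zfp612 (0.988), Mbd1 (0.984) and Nlrx1 (0.984), with 238 genes above 0.9. For Spdef, whose pattern was nearly that of the fractions themselves, they were Syngr2 (0.998), Ccdc88c (0.997) and Tango2 (0.996), and 771 genes exceeded 0.9. For Ovol1 they were Bid (0.963), S100a11 (0.959) and Met, the hepatocyte growth factor receptor (0.959), with 57 genes above 0.9. For Grhl2 they were Ice2 (0.990), Efna1 (0.986) and Btg1 (0.985), with 148 above 0.9. Among the members, Elf3 and Grhl2 were the most alike (r = 0.878) and Elf5 and Grhl2 the least (r = 0.261), where all points share the fractions and pools.

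Other members of the same families did not share one direction between the fractions. Of 16 tested ETS factors outside the group described here, 3 were lower in luminal cells of control mice and 0 higher, with a median of -0.57 beside 0.12 for all 11292 genes, of which 4.85% were higher and 6.91% lower. The 3 were Etv5 (-2.67 ± 0.42, adjusted p = 0.0105, limma), Ets1 (-1.86 ± 0.36, 0.0216) and Etv4 (-2.24 ± 0.50, 0.0342), and Etv1 differed by -2.64 with an adjusted p of 0.102. In ovx mice, where 5.65% of all genes were higher and 8.91% lower, Etv5 alone passed (-2.17 ± 0.42, adjusted p = 0.0182, limma). Of 5 other grainyhead, CP2 and Ovo factors, Grhl1 was higher in luminal cells of control mice (2.47 ± 0.50, adjusted p = 0.0240, limma), and Tfcp2l1 (2.48, 0.0743), Ovol2 (0.97, 0.140) and Ubp1 (-0.50, 0.471) did not pass. In ovx mice Grhl1 (3.85, adjusted p = 0.00403, limma) and Tfcp2l1 (4.07, 0.0122) passed.

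Genes that Grhl2 and its relatives are known to activate, and the factors that oppose them, separated the fractions in opposite directions. Of 14 epithelial junction and splicing genes, 9 were higher in luminal cells of control mice and 0 lower, with a median of 1.92, and 10 were higher in ovx mice, beside the 4.85% and 5.65% of all genes. In control mice they included the tight junction gene Marveld3 (3.10 ± 0.32, adjusted p = 0.00247, limma), Rab25 (2.52 ± 0.47, 0.0192), the protease inhibitor gene Spint1 (2.11 ± 0.40, 0.0204) and Cldn4 (2.45 ± 0.49, 0.0231). Of 6 transcription factors of epithelial to mesenchymal transition, 3 were lower in luminal cells in both treatments, beside 6.91% and 8.91% of all genes, with a median of -1.84 in control mice. Endothelial and pericyte markers were lower there too, with medians of -2.46 and -2.44 in control mice. The median of 5 fibroblast markers was -0.93 in control and -1.55 in ovx mice, with 0 called. The part of these 3 marker sets in the values of the transcription factors was not tested. Snai2 was at least 49.3-fold lower (adjusted p = 0.000398, limma), Zeb1 fell by 2.16 ± 0.50 (0.0393) and Zeb2 by 2.69 ± 0.63 (0.0397), while Snai1 differed by -1.52 (0.220).

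Of 15 other luminal transcription regulators, 4 were higher in luminal cells of control mice and 0 lower, beside 4.85% and 6.91% of all genes. Their median was 0.89, beside 0.12 for all genes. The 4 higher genes were Cited1 (4.98 ± 0.66, adjusted p = 0.00534, limma), Foxa1 (4.68 ± 0.70, 0.00876), the oestrogen receptor gene Esr1 (2.64 ± 0.51, 0.0209) and the progesterone receptor gene Pgr (3.16 ± 0.62, 0.0216). They are the same 4 hormone-sensing genes already counted above as markers of the fractions. In ovx mice 3 of the 15 were higher and 1 lower, beside 5.65% and 8.91% of all genes. The lower one was Tfap2c (-1.67 ± 0.34, adjusted p = 0.0206, limma). Of 7 milk protein and prolactin signal genes, 2 were higher in luminal cells of control mice, beside 4.85% of all genes. They were Stat5a (1.78 ± 0.37, adjusted p = 0.0265, limma) and Wap (2.61 ± 0.61, 0.0393), while Csn1s2b (1.69, 0.0971) and Csn1s1 (0.53, 0.468) did not pass.

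**Figure D4:**
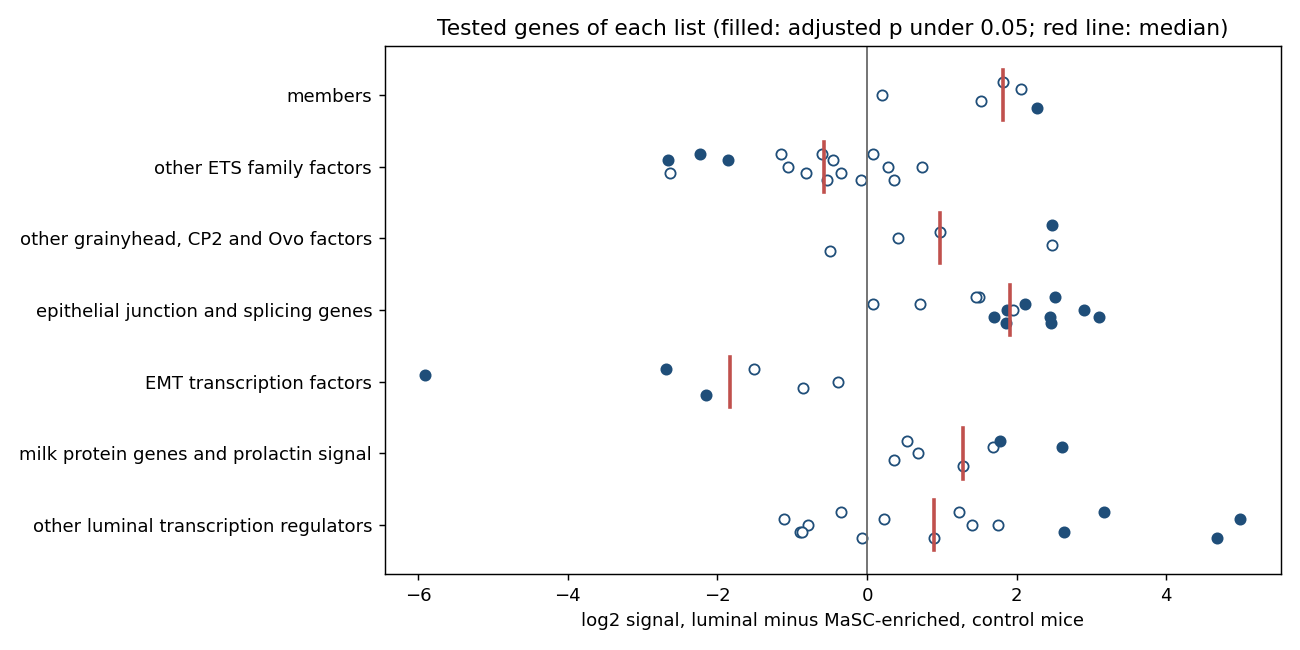
Difference in log2 signal between luminal and MaSC-enriched cells of control mice (horizontal axis) for the 5 members by their brightest probe and for the tested genes of 6 lists (rows), with filled points for genes that passed the test and a red line at the median of each list. Medians run from -1.84 for the transcription factors of epithelial to mesenchymal transition to 1.92 for the epithelial junction genes, with 1.82 for the members.

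Between ovx and control mice, Csn2 was the single gene of these 6 lists that passed. This beta-casein gene, a milk protein gene, was lower by 8.46 log2 units in MaSC-enriched cells (log2 difference -8.46 ± 0.64, adjusted p = 0.0113, limma) and by 6.24 in luminal cells (-6.24 ± 0.64, 0.0373) of ovx mice. The casein gene Csn1s1 differed by -3.77 in MaSC-enriched cells (adjusted p = 0.0516, limma) and the whey protein gene Wap by -4.37 in luminal cells (0.0639). Among the ETS factors the smallest p-values belonged to Etv4 (-2.33, adjusted p = 0.196, limma) and Etv5 (-1.24, 0.453) in MaSC-enriched cells and to Ets1 (1.33, 0.370) and Etv1 (2.71, 0.480) in luminal cells. The luminal regulators Klf5 (-1.65, adjusted p = 0.194, limma) and Esr1 (1.34, 0.518) in MaSC-enriched cells and Esr1 (2.00, 0.322) and Pgr (-2.04, 0.454) in luminal cells also missed the threshold.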

How the data were processed

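RNA of 8 sorted samples, 4 of them run on a second array, was measured on 12 Illumina BeadChip arrays. Per the file headers, the deposited table lists for every probe the bead intensity and its detection p-value. The deposited series table holds log2 values whose normalization is not given in the sources used here; it served as an alternative. BeadStudio and limma are the tools listed in the submitters' processing notes. Here, limma 3.58.1 in R 4.3.3 corrected background (neqc, inferred controls, offset 16), quantile normalized and took log2, and arrays of one RNA were averaged. Probes with a mean detection p under 0.05 in at least 2 of 8 samples were kept (20995 probes, 11292 genes, each represented by its brightest kept probe). A model with 4 group means (4 residual and 3.22 prior degrees of freedom) gave moderated two-sided tests with Benjamini-Hochberg adjustment across the kept probes, called at 0.05. With 2 samples against 2 an exact test cannot go below 0.333, so the tests rest on the spread shared across probes. A fold written "at least" sets undetected arrays to their detection floor.

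In the platform annotation 34885 probes had 1 gene symbol, 18 several and 10378 none. The labels' pool numbers pair the fractions; deviations of paired samples from their group means correlated at 0.367 in control and 0.135 in ovx pools. Control and ovx samples of the same replicate number, which share no pool in the labels, correlated at 0.587 in MaSC-enriched and 0.279 in luminal cells. Named genes are all members, the 3 genes most correlated with each, and from each list up to 4 genes with the smallest p between control fractions and up to 2 in each ovx comparison. Genes named between the ovx fractions were chosen after their values were seen. The members and lists were chosen with earlier results of these data known. Alternatives covered background correction, filters, blocks, beadchips, weights and left-out samples. The fitting code was tested on simulated data.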

Additional observations from a re-analysis of the deposited data

How the results depend on the processing

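Over all settings, 965 of 1062 values of the member probes kept their direction and side of the threshold, 30 lost and 33 gained the call, and 34 changed sign. Only 2 of the sign changes fell among the 432 values between the fractions (Grhl2 in control mice). The count of member genes called between fractions was 1 in control mice; it was 2 with the replicate block, with 12 arrays and beadchip as a block and within beadchip 2, 0 within beadchip 1 and with the groups of the comparison alone, 4 for the mean of control and ovx mice, and 0 to 2 on leaving out single samples (0 without control luminal replicate 1, 2 without control MaSC-enriched replicate 1). In ovx mice it was 2; it was 1 with no filter on dim probes, 0 within beadchip 1, 4 for the mean of treatments, 3 with the replicate block or the pool as a random block, and 0 to 3 on leaving out single samples (0 without ovx MaSC-enriched replicate 2 or either ovx luminal sample, 1 without either control luminal sample). The block on the pool pairing changed no call of a member probe other than those of Ovol1. All counts between ovx and control stayed at 0. Over all probes, calls between ovx and control ranged from 0 to 583 in MaSC-enriched cells (16 as reported) and 0 to 231 in luminal cells (33).

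Sign changes were in small differences. The difference of ovx effects for Spdef (-0.02) was 0.030 with offset 50 and with the deposited table and 0.47 within beadchip 2. That of Elf3 probe 2 (0.30) was -0.073 within beadchip 1 and -0.24 within beadchip 2, that of Ovol1 (0.13) -0.19 within beadchip 2, and that of Elf3 probe 1 (-0.17) 0.57 without the control replicate 2 pool. Ovx minus control in MaSC-enriched cells was 0.017 within beadchip 2 and 0.0053 without that pool for Elf5 probe 3 (-0.07), and -0.43 within beadchip 2 for Spdef (0.16). In luminal cells Spdef (0.14) was -0.23 without that pool. Leaving out single samples moved these values between -0.0066 and 0.33 (Spdef, MaSC-enriched), -0.53 and 0.64 (Ovol1, MaSC-enriched), -0.14 and 0.0053 (Elf5 probe 3, MaSC-enriched), -0.23 and 0.51 (Spdef, luminal), -0.35 and 0.72 (Ovol1, luminal), -1.16 and 0.82 (Elf3 probe 1, difference of effects), -0.84 and 1.44 (Elf3 probe 2, difference), -0.39 and 0.35 (Spdef, difference), -0.46 and 0.71 (Ovol1, difference) and -0.034 and 0.44 (Grhl2, control fractions). The cause was not tested.

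With 2 pools a group, the tests set each difference against the spread between pools of a group, which is partly shared across probes. The main model does not use the pairing of the fractions within a pool. The high detection floor of control MaSC-enriched replicate 1 limits what can be said of Spdef, Ovol1, Elf5 probe 3 and Elf3 probe 3. Where a sample was left out, the lone sample of its group was assumed to vary like the other groups.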
